A study of Mus musculus with 12 samples.

Results

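The interferon-stimulated genes described here are 50 genes of the type I and type II interferon response, listed by name for their known induction by interferon and found in the count table by gene identifier and symbol. All 50 were in the table of 55335 genes, and all 50 were among the 18234 genes with enough counts to test. They were measured by RNA-seq of polyadenylated RNA from hematopoietic stem cells (HSCs) sorted from mouse bone marrow. The samples came from Ythdc1Δ/Δ mice, which carry floxed Ythdc1 alleles (Ythdc1 fl/fl) and Mx1-Cre, and from Ythdc1+/+ mice, which carry Mx1-Cre alone. Both genotypes received repeated injections of pIpC, and the labels give the strain of all samples as C57B6 and no age, sex or time between the last injection and the sort. Mx1-Cre is itself under an interferon-inducible promoter and acts in many interferon-responsive cells, so that recombination is not limited to HSCs. No sample without pIpC was analysed here, and induction over an uninjected baseline could therefore not be measured.

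There were 12 libraries with 6 title numbers, which are KO176, KO177 and KO209 (Ythdc1Δ/Δ) and WT178, WT180 and WT207 (Ythdc1+/+), and each number had 2 libraries. Whether a number is a mouse, and what its value stands for, is not in the labels, so p-values here cover the spread between title numbers alone, and that spread may be technical. Both libraries of each number were added together, leaving 3 samples per genotype with 42098649 to 48095239 counts each. Levels are given in CPM, which sets a gene's counts against its sample's total after TMM scaling, and the counting error at this depth was small, since the lowest count of a member summed over a sample was 35. Ythdc1 itself stood at 56.8 CPM in KO176, 69.6 in KO177 and 69.6 in KO209, and at 76.0 in WT178, 72.6 in WT180 and 92.5 in WT207. These counts cover all exons of Ythdc1, also those outside the floxed part, and do not check the genotype labels. In bulk samples such as these, fewer cells of a type and less RNA per cell cannot be told apart.

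pIpC is a synthetic double-stranded RNA. Cells recognise such RNA by the endosomal receptor TLR3 and by the cytoplasmic helicases MDA5 and RIG-I, and respond with type I interferon. Interferon binds its receptor, the kinases JAK1 and TYK2 phosphorylate STAT proteins, and the complex of STAT proteins with IRF9 binds the interferon-stimulated response element (ISRE) in the promoters of its targets, whereas interferon gamma acts through dimers of a STAT protein at the gamma-activated site (GAS). The products block viral entry, translation and replication, present antigens, and feed back on the pathway. In HSCs interferon is known to drive exit from quiescence, and it raises the surface antigen Sca-1, which is used to sort these cells.

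Promoters are shown for 5 members, because the letters that interferon-activated factors bind can be read in them. Of the 50 members, 38 had a promoter in the RefSeq table of build GRCm38.p6 (mm10), from 250 bases before to 50 bases after the gene's start. The core of the ISRE was searched as GAAANNGAA and the GAS as TTCNNNGAA, on both strands, and matches may overlap each other. The ISRE core was found in at least 1 promoter of 20 of the 38 members (52.6%), against 9.76% of the 27025 genes of the table. By promoters, the share was 44.7% of the 47 promoters of members against 8.56% of all 32851 promoters of the same length. The GAS was found for 12 of 38 members (31.6%) against 9.55% of genes, and in 25.5% of the promoters of members against 8.30% of all promoters. Both motifs were present for 6 members, and in Bst2 a GAS match overlaps an ISRE match. Of the 20 members with an ISRE core, 16 had a match that begins within 200 bases before the start. A match of letters describes the sequence and does not show that a factor binds there. The first 4 sequences below have the ISRE core in capitals and the last has the GAS in capitals, and all are written 5′ to 3′ on the gene's strand.
Isg15, chr4:156200769-156201068, minus strand: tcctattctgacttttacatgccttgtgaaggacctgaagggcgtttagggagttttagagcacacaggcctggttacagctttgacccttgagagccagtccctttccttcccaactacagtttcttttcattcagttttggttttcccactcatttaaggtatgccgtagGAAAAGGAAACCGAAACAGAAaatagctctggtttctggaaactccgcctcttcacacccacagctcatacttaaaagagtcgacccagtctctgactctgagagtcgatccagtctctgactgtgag
Ifit3, chr19:34583279-34583578, plus strand: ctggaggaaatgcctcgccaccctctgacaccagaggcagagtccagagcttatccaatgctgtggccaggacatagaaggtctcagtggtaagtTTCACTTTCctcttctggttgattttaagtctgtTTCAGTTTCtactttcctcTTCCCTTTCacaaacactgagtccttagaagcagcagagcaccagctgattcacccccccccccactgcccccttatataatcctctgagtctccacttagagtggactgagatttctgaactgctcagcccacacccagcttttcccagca
Irgm1, chr11:48871371-48871670, minus strand: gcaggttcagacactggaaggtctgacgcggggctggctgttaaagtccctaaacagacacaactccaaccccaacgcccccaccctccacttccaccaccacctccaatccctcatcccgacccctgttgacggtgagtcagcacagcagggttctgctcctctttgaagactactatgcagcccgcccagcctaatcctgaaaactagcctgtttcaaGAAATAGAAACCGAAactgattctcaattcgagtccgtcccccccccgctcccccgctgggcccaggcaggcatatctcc
Gbp2, chr3:142620413-142620712, plus strand: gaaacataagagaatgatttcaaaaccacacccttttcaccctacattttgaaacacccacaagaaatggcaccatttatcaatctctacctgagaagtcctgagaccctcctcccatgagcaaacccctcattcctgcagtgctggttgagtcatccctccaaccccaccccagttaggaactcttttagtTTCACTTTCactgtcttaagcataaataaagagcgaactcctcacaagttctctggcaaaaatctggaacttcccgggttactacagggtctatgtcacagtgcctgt
Irf1, chr11:53769764-53770063, plus strand: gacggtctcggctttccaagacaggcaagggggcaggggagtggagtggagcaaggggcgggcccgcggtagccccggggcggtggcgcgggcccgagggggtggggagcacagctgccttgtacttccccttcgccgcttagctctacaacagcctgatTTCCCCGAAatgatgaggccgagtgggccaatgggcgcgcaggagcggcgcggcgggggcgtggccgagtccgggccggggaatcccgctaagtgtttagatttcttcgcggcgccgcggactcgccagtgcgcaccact

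Isg15 and Ifit3 were chosen because their levels differed most in their role groups. Irgm1 was chosen because it passed the test between ranges of title numbers. It was the only member that passed and had a match. Of the others that passed, Irf9 and Xaf1 held neither motif and Rtp4 had no RefSeq promoter. Gbp2 was chosen because it had the smallest p between genotypes, and Irf1 because it departed from the order of most members. In Isg15 the 3 matches overlap in 1 run that begins 78 bases before the start. In Ifit3 the 3 matches lie on the other strand and begin 155, 121 and 102 bases before the start. Irgm1 holds 2 overlapping matches from 30 bases before the start. Irf1 holds no ISRE core in either of its promoters, and its GAS match begins 90 bases before the start.

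Across the members, 1 sample of each genotype was high, 1 was intermediate and 1 was low. KO176 and WT180 had the highest levels, KO177 and WT178 lay between, and KO209 and WT207 had the lowest. The mean over the 50 members of log2(CPM + 0.5) relative to each gene's own mean was 0.76 in KO176, 0.09 in KO177 and -0.91 in KO209, and it was 0.80 in WT180, 0.0054 in WT178 and -0.74 in WT207. The genotypes therefore differed by -0.04 in this mean (Ythdc1Δ/Δ minus Ythdc1+/+), while its SD within a genotype was 0.84 in Ythdc1Δ/Δ and 0.77 in Ythdc1+/+ (n = 3 samples each). The 2 libraries of a number stood together, at 0.73 and 0.73 for KO176 and at -0.87 and -0.91 for KO209 by the same measure. This order of the samples was noticed after the values were seen, and it is a description.

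**Figure D1:**
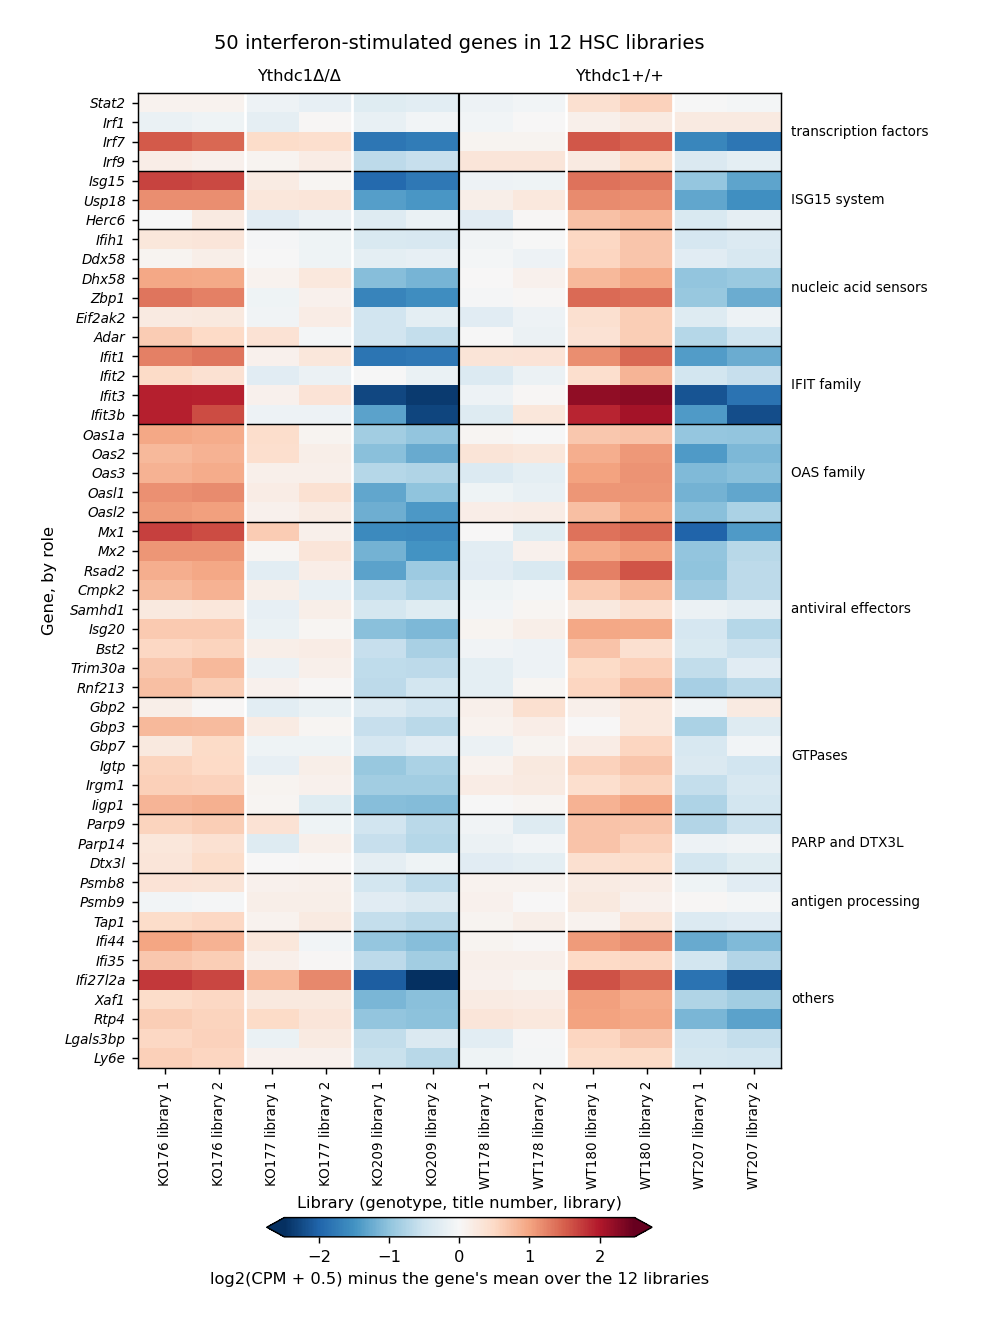
Level of the 50 members (rows, by role) in the 12 libraries (columns, by genotype and title number), as log2(CPM + 0.5) minus the gene's mean over the libraries; red is above and blue below that mean. The libraries of KO176 and WT180 are red and those of KO209 and WT207 blue for most genes. In these rows 1 sample of each genotype lies at each level, and Irf1 is among the rows that depart from that order.

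The count of members with this order was high beside that of other genes. KO176 and WT180 were the 2 highest samples for 46 of the 50 members, against 7.91% of the genes tested. KO209 and WT207 were both below the other 4 samples for 44 members, against 14% of the genes, and both orders held together for 43 members, against 3.99%. The highest sample was WT180 for 26 members, KO176 for 22, WT178 for 1 (Gbp2) and WT207 for 1 (Irf1), and the lowest was KO209 for 33 and WT207 for 17. The highest sample was at least 4 times the lowest for 21 members, against 1.76% of the 10586 genes at 5 CPM or more, and the median ratio of highest to lowest was 2.82 among the members and 1.40 among those genes. Between the 2 libraries of a number the largest ratio of any member was 3.20, in Ifit3b, and the median of each member's largest ratio was 1.24.

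The genes that make the transcription factors of the response behaved unequally. Irf7, which amplifies the production of type I interferon, stood at 414 CPM in KO176, 196 in KO177 and 41.1 in KO209, and at 152 in WT178, 416 in WT180 and 43.3 in WT207. The highest sample of Irf7 was 10.1 times the lowest, and its 2 lowest samples, 1 of each genotype, were close to each other. Irf9, the DNA-binding partner of the STAT complex at the ISRE, had 169, 163 and 96.9 CPM in KO176, KO177 and KO209, and 187, 192 and 121 CPM in WT178, WT180 and WT207. Irf9 lies on chromosome 14 from 55603571 to 55610030. Irf1, a factor that both interferon types induce, had 134, 134 and 129 CPM in KO176, KO177 and KO209 and 142, 162 and 166 CPM in WT178, WT180 and WT207. Irf1 was the only member whose genotypes did not overlap, against 16.3% of the genes tested, and it was also the member with the smallest span from lowest to highest sample, 1.28-fold. By annotation 20.02% of its exon bases overlap another gene, which reads without strand cannot separate.

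ISG15 is a ubiquitin-like modifier, USP18 removes it and restrains the interferon receptor, and HERC6 attaches it in mice. Isg15 stood at 88.9 CPM in KO176, 29.6 in KO177 and 6.99 in KO209, and at 25.05 in WT178, 69.1 in WT180 and 11.9 in WT207. Usp18 stood at 313, 166 and 50.1 CPM in the same Ythdc1Δ/Δ samples and at 159, 308 and 50.6 CPM in the Ythdc1+/+ samples. Both genes spanned a wide range within each genotype, 12.7-fold for Isg15 and 6.24-fold for Usp18 over all samples. Herc6 had 15.2, 11.74 and 11.4 CPM in Ythdc1Δ/Δ and 12.7, 23.95 and 11.02 CPM in Ythdc1+/+. Its highest sample was WT180 and its lowest WT207, and per kilobase of exon it had the lowest level of all 50 members (1.54 CPM per kb).

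Among the nucleic acid sensors, the cytoplasmic RNA helicases and their relatives differed in span. Dhx58, which encodes the helicase LGP2, stood at 170.1, 96.2 and 38.8 CPM in KO176, KO177 and KO209 and at 89.5, 159 and 43.5 CPM in WT178, WT180 and WT207. Adar, the RNA-editing enzyme that marks cellular double-stranded RNA as self, had 113, 84.4 and 50.5 CPM and 71.0, 105 and 48.3 CPM in the same order. Ddx58, which encodes RIG-I, had 59.1, 51.6 and 45.0 CPM and 50.8, 82.6 and 41.8 CPM. The spans were 4.39-fold for Dhx58, 2.33-fold for Adar and 1.98-fold for Ddx58, and in all of them the 2 lowest samples were KO209 and WT207. The sensors Ifih1, Zbp1 and Eif2ak2 spanned 2.04-fold, 8.48-fold and 1.86-fold.

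The IFIT proteins bind viral RNA and block its translation, and their genes are neighbours on chromosome 19. This family had the widest spread of all role groups. Ifit1 stood at 152 CPM in KO176, 68.2 in KO177 and 16.5 in KO209, and at 75.5 in WT178, 149 in WT180 and 23.5 in WT207. Ifit3 stood at 63.3, 18.5 and 2.69 CPM in Ythdc1Δ/Δ and at 15.4, 76.1 and 3.57 CPM in Ythdc1+/+, which is a span of 28.3-fold. Ifit3b, its near-identical neighbour, had 14.6, 3.38 and 0.768 CPM and 3.84, 16.4 and 0.747 CPM. Reads that fit both copies may be split or lost, so the separate levels of Ifit3 and Ifit3b are uncertain, while in both KO176 and WT180 were highest and KO209 and WT207 lowest. Ifit2 spanned only 2.29-fold, and in it KO209 was above KO177 and WT178.

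The OAS enzymes make the short adenylate chains that activate RNase L. Oasl2, an OAS-like protein, had 433, 228 and 80.8 CPM in KO176, KO177 and KO209 and 233, 377 and 108 CPM in WT178, WT180 and WT207. Oas1a had 266, 163 and 69.7 CPM and 137, 217 and 67.3 CPM in the same order. In both, the intermediate samples KO177 and WT178 were near each other and the low pair were below them, and the other 3 genes of the family, Oas2, Oas3 and Oasl1, spanned 4.50-fold to 5.53-fold.

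In all 9 other antiviral effectors KO209 and WT207 were below the other samples, with spans from 1.64-fold in Samhd1 to 13.4-fold in Mx1. Bst2, which encodes tetherin and holds budding virions at the cell surface, had 226, 171 and 92.1 CPM in Ythdc1Δ/Δ and 141, 224 and 109 CPM in Ythdc1+/+ samples. Isg20, an exonuclease that degrades viral RNA, had 175.7, 105 and 50.4 CPM in Ythdc1Δ/Δ and 118, 214 and 73.3 CPM in Ythdc1+/+ samples. Mx1 and Mx2 were near the bottom per length, at 2.41 and 1.97 CPM per kb.

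The guanylate-binding proteins and immunity-related GTPases act on vacuoles that hold intracellular pathogens and respond strongly to interferon gamma. Irgm1, which is also known for protecting HSCs of interferon-exposed mice, stood at 343 CPM in KO176, 239 in KO177 and 121 in KO209, and at 261 in WT178, 316 in WT180 and 159 in WT207. It lies on chromosome 11 from 48861968 to 48871683. Igtp had 252, 168 and 91.8 CPM in Ythdc1Δ/Δ and 194, 266 and 127 CPM in Ythdc1+/+ samples. Gbp2 had 75.4, 59.5 and 51.2 CPM in Ythdc1Δ/Δ and 84.0, 79.3 and 72.3 CPM in Ythdc1+/+ samples. In Gbp2 the low sample of Ythdc1+/+, WT207, was above both KO177 and KO209, and the genotypes overlapped through KO176.

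PARP9 and DTX3L form a complex that modifies ubiquitin and histones, and PARP14 is a related ADP-ribosyltransferase. Parp9 had 109, 79.3 and 47.0 CPM in KO176, KO177 and KO209 and 62.3, 116 and 45.6 CPM in WT178, WT180 and WT207. Dtx3l, which overlaps Parp9 on chromosome 16, had 122, 92.8 and 79.9 CPM and 76.4, 123 and 69.3 CPM. Parp14 had 26.5, 19.2 and 12.7 CPM and 19.1, 32.4 and 18.9 CPM. In Dtx3l KO209 was above WT178, and in Parp14 WT207 and WT178 were nearly equal while KO209 was the lowest.

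Genes of antigen processing had high levels and small spans, with Psmb8, Psmb9 and Tap1 at rank 3, 10 and 13 of the 50 members per kilobase. Psmb8, a subunit of the immunoproteasome, stood at 1024, 862 and 537 CPM in Ythdc1Δ/Δ and at 849, 911 and 686 CPM in Ythdc1+/+ samples. Psmb9, another such subunit, had 242, 272 and 195 CPM and 257, 279.7 and 242 CPM. Tap1, a subunit of the transporter that carries peptides to MHC class I, had 455, 355 and 201 CPM and 344, 365 and 254 CPM. KO209 was lowest in all 3 genes, and the spans ran from 1.43-fold in Psmb9 to 2.27-fold in Tap1.

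The last 7 members have other or less defined roles. Ly6e, a cell-surface protein that restricts coronaviruses, was the highest member also per length (700.1 CPM per kb) and stood at 3829, 2722 and 1608 CPM in Ythdc1Δ/Δ and at 2410.4, 3495 and 1831 CPM in Ythdc1+/+ samples. Lgals3bp, a secreted galectin-binding glycoprotein, had 1119, 768 and 526 CPM in Ythdc1Δ/Δ and 685, 1142 and 508 CPM in Ythdc1+/+ samples. Both genes thus showed the order of the samples at high counts. Rtp4, a chaperone that has been linked to control of the interferon response, had 334, 285 and 107 CPM in Ythdc1Δ/Δ and 266, 432 and 91.4 CPM in Ythdc1+/+ samples. Xaf1, a pro-apoptotic protein, had 121, 99.0 and 38.6 CPM in Ythdc1Δ/Δ and 97.2, 166 and 47.3 CPM in Ythdc1+/+ samples. In both, every other sample of a genotype was over 2 times as high as KO209 or WT207. Ifi27l2a had the largest span outside the IFIT genes, 17.4-fold.

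**Figure D2:**
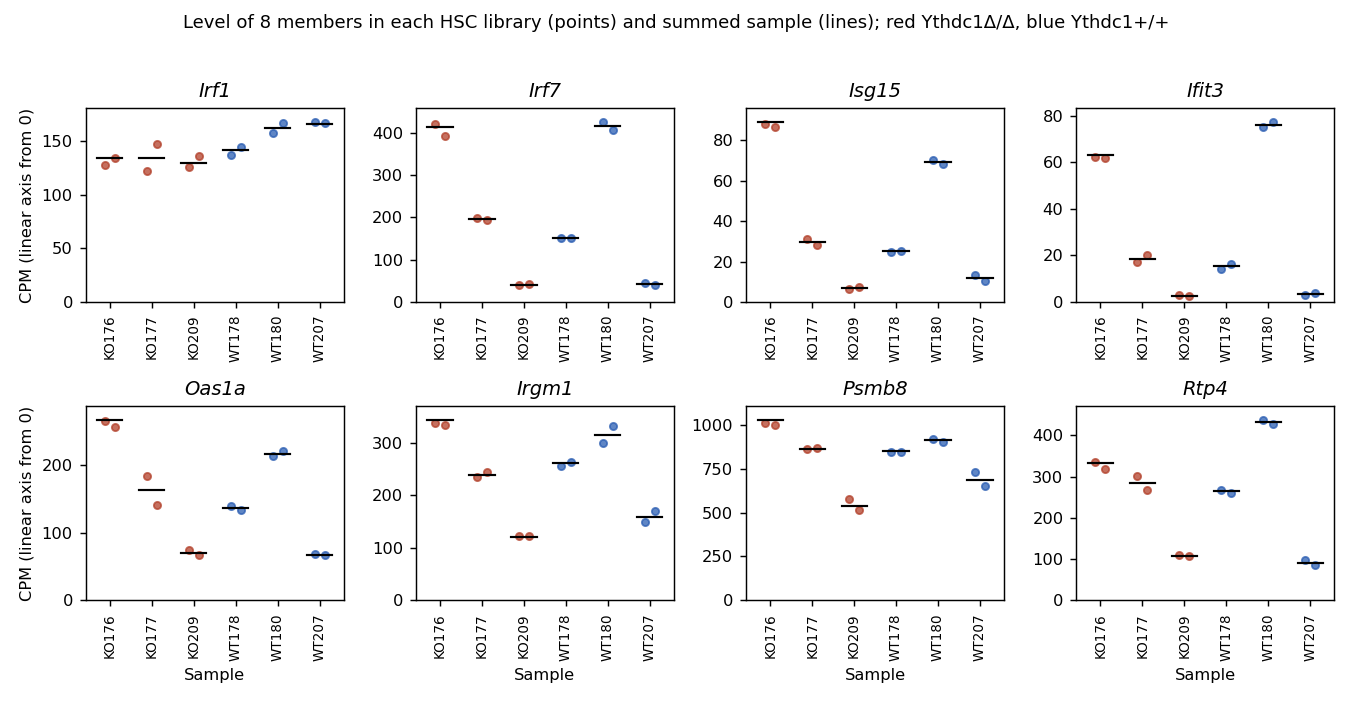
CPM (vertical axes, linear from 0) of 8 members in the 6 samples (horizontal axes), with a point for each library and a line for the 2 libraries summed; red is Ythdc1Δ/Δ and blue Ythdc1+/+. In 7 of the 8 panels the lowest samples are KO209 and WT207, 1 of each genotype, and Irf1 shows 129 to 166 CPM in all samples.

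The question of the study's design is whether loss of YTHDC1 changes the HSC transcriptome, and for these genes no difference between genotypes passed the test. With edgeR's quasi-likelihood test of 3 against 3 samples and Benjamini-Hochberg adjustment over 18234 genes, 0 of 50 members were called (adjusted p under 0.05), against 0.137% of all genes. The log2 fold change (Ythdc1Δ/Δ minus Ythdc1+/+) was above 0 for 24 members and below 0 for 26, with a median of -0.03 beside -0.0062 over all genes, and it ran from -0.34 in Gbp2 to 0.41 in Ifi27l2a. At an unadjusted p under 0.05 there was 1 member, Gbp2, which was lower, against 949 lower and 780 higher of all 18234 genes. Gbp2 stood at 62.0 ± 12.3 CPM in Ythdc1Δ/Δ and 78.5 ± 5.87 CPM in Ythdc1+/+ (SD, n = 3). Its log2 fold change was -0.34 (SE, the standard error, 0.15, adjusted p = 0.5002, the smallest of the members, from edgeR's quasi-likelihood test). Irf1 had 132 ± 2.82 and 157 ± 12.8 CPM (SD, n = 3) and a log2 fold change of -0.24 (SE 0.11, adjusted p = 0.529 by the same edgeR test).

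The genotype comparison was less precise for these genes than for others. The median standard error of the log2 fold change was 0.47 for the members and 0.19 over all genes, and the median width of the 95% interval was 2.40 against 0.85. For 28 members the interval held both -1 and 1, which is a 2-fold change in either direction, as in Irf7 (-3.16 to 3.34) and Isg15 (-2.91 to 3.39). For 18 members it lay wholly between -1 and 1, as in Psmb8 (-0.51 to 0.48), Psmb9 (-0.45 to 0.18) and Ddx58 (-0.72 to 0.38). With a term for the range of title numbers the comparison was more precise, and 0 members were called. The median standard error was then 0.24, the interval held both -1 and 1 for 15 members and lay wholly between them for 33, and that of Irf7 was -1.67 to 1.77. In that fit 3 of 50 members were lower at an unadjusted p under 0.05 and 0 were higher. Of all 18234 genes, 1436 were lower and 1157 higher by the same measure. The median over the members depended on single samples, at -0.42 without KO176, 0.03 without KO177, 0.33 without KO209, 0.43 without WT180 and -0.28 without WT207, and 0 members were called in each of these fits.

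The title numbers fall into 2 ranges, a lower one with KO176, KO177, WT178 and WT180 and a higher one with KO209 and WT207, so that each holds both genotypes. Most members were lower in the samples with the higher numbers, and 4 of them passed the test. With genotype as a covariate in the same edgeR fit, the log2 fold change of KO209 and WT207 against the other 4 samples was below 0 for 49 of 50 members, with a median of -1.06 beside 0.0039 over all genes. The called members were Irf9, Irgm1, Xaf1 and Rtp4, all lower, against 0.225% of all genes called lower. Rtp4 stood at 99.0 ± 10.7 CPM in KO209 and WT207 (SD, n = 2) and at 329 ± 74.3 CPM in the other samples (SD, n = 4), with a log2 fold change of -1.73 (SE 0.21, adjusted p = 0.024 from edgeR). Irf9 fell from 177.7 ± 13.7 to 109 ± 16.9 CPM (log2 fold change -0.71, SE 0.10, adjusted p = 0.020 from edgeR). Irgm1 fell from 290.0 ± 47.9 to 139.8 ± 26.5 CPM (log2 fold change -1.06, SE 0.17, adjusted p = 0.034 from edgeR). Xaf1 fell from 121 ± 32.2 to 42.9 ± 6.21 CPM (log2 fold change -1.49, SE 0.22, adjusted p = 0.048 from edgeR). The count of calls rested on both samples of the higher range, being 0 without KO209, 0 without WT207, 3 without WT180, 7 without KO176, 11 without KO177 and 17 without WT178, and where KO209 or WT207 is left out the lone sample is assumed to vary like the others. Counted at an unadjusted p under 0.05, 39 members were lower, against 10% of all genes.

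The largest differences were not the ones that passed the test. Ifit3 had a log2 fold change of -3.80 (SE 1.25, adjusted p = 0.27 from edgeR), and its 4 samples of the lower range themselves ran from 15.4 to 76.1 CPM. Irf7 had -2.80 (SE 0.70) and Isg15 had -2.49 (SE 0.91), also with an adjusted p above 0.05. By role group the median log2 fold change was -3.07 for the IFIT family, -2.23 for the ISG15 system and -1.76 for the OAS family. It was -1.49 for the 7 other members, -1.19 for other antiviral effectors, -0.97 for the GTPases, -0.78 for the sensors, -0.64 for PARP and DTX3L, -0.58 for antigen processing and -0.50 for the transcription factors. Irf1, at 0.04, was the exception among the 50. Among the members with a RefSeq promoter, the median was -0.97 for the 20 with an ISRE core and -0.79 for the 18 without one, and both groups held members with large and small differences, the latter group reaching -2.80 in Irf7.

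**Figure D3:**
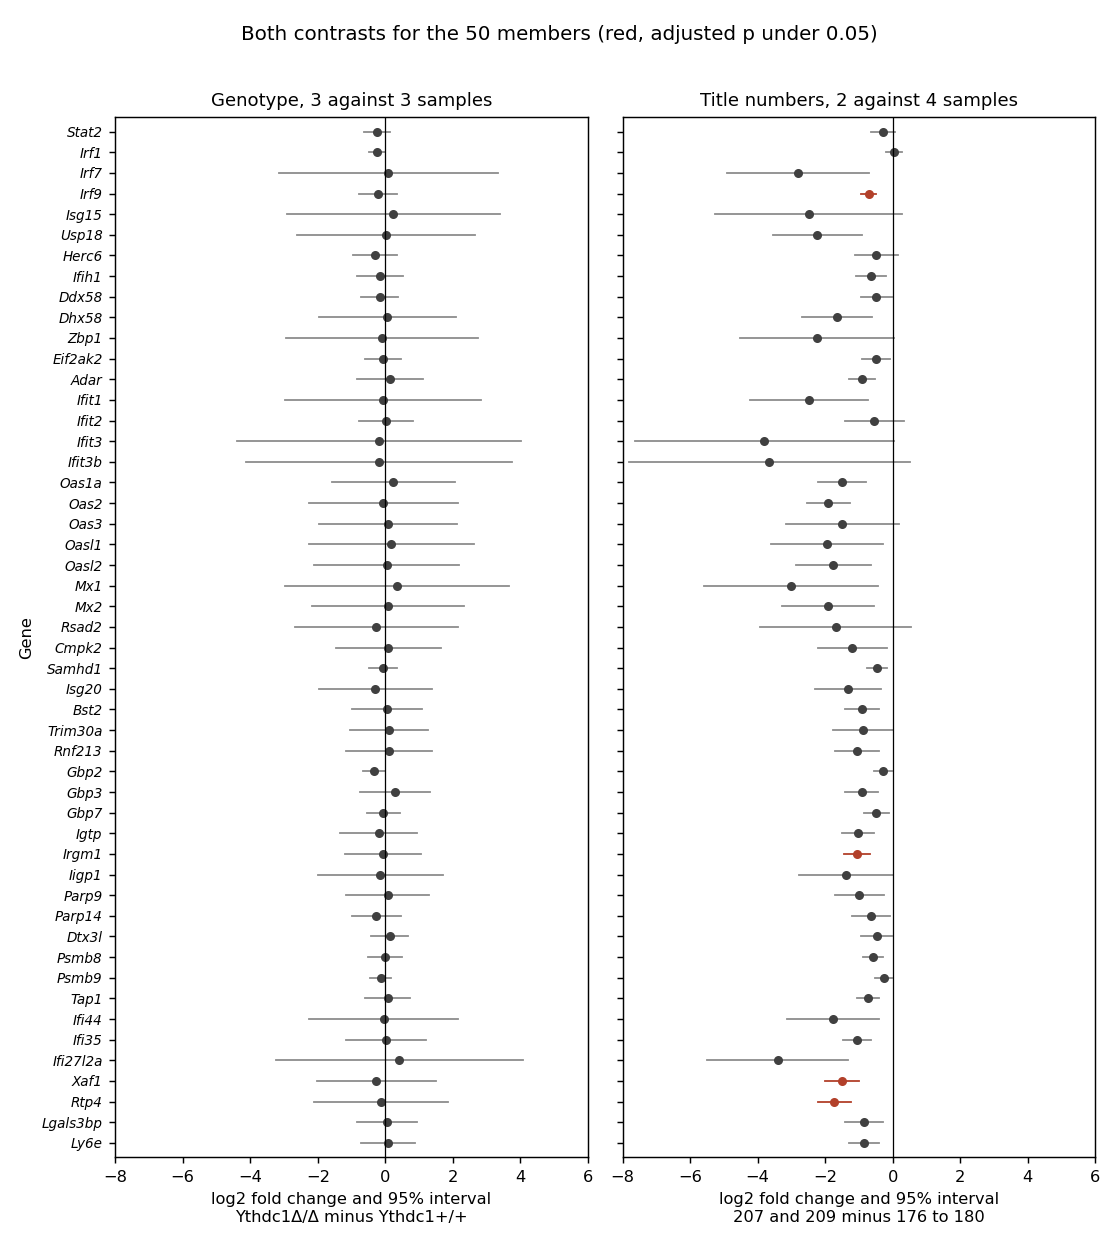
Log2 fold change (points) with its 95% interval (lines) of the 50 members for genotype (left, Ythdc1Δ/Δ minus Ythdc1+/+) and for the range of title numbers (right, KO209 and WT207 minus the other samples), with called members in red. On the left all points lie between -0.34 and 0.41 with wide intervals, and on the right 49 of 50 lie below 0 with 4 called.

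Whether the genotypes differed in this contrast was tested by the product of genotype and range. The fit called 0 of 50 members, against 0.0110% of all genes, with a median of -0.18 and intervals whose median width was 2.97 on the log2 scale. With 1 sample per genotype in the higher range, the interval held both -1 and 1 for 28 members. Within the samples of the lower range, which are 2 against 2, the genotype fit called 0 members and the median log2 fold change was -0.012.

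**Figure D4:**
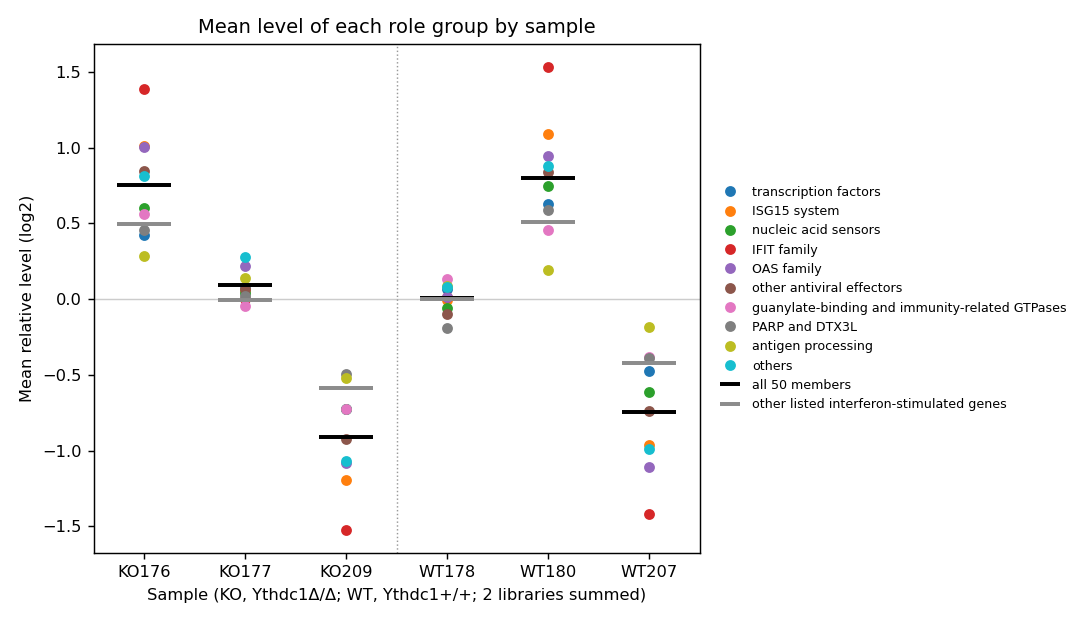
Mean relative log2 level (vertical axis) of each role group (coloured points), of all 50 members (black bars) and of the other listed interferon-stimulated genes (grey bars) in the 6 samples (horizontal axis). The members lie at 0.76 and 0.80 in KO176 and WT180 and at -0.91 and -0.74 in KO209 and WT207. In these samples the IFIT family lies farthest from 0. Antigen processing lies nearest to 0 there, except in KO209, where PARP and DTX3L lies nearer (-0.49 against -0.52). In KO177 and WT178 the IFIT family lies at 0.0047 and 0.014.

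The rest of the pathway was examined by lists. Of 21 genes for interferons of types I, II and III, 0 had enough counts to be tested, all of them together had 102 counts in all samples, and 4 had no read, so interferon transcripts were hardly detectable in these sorted cells at this depth. The 9 receptors, kinases and STATs had a median log2 fold change of 0.07 between the ranges, with 0 called. Ifnar1, a chain of the type I receptor, had 58.0 to 65.8 CPM in all samples. By genotype 0 of the 9 were called, and the smallest p values were those of Stat3 (199, 207.2 and 228 CPM in Ythdc1Δ/Δ and 253, 225 and 273 CPM in Ythdc1+/+) and Jak2 (14.4, 14.4 and 18.5 CPM against 16.6, 18.8 and 20.5 CPM). The 9 genes for sensing of pIpC had a median of -0.16 between the ranges, with 0 called in either comparison. Ticam1, the adaptor of TLR3, had 7.42 to 11.8 CPM over all samples, Traf3, a ubiquitin ligase of that pathway, had 13.7 to 16.9 CPM, and Tlr3 itself had 0.480 to 1.204 CPM.

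The 11 negative regulators and competing factors had a median of -0.04 between the ranges, again with 0 called in either comparison. Ptpn6, a phosphatase that dampens cytokine receptors, had 418 to 504 CPM over all samples, and Irf2bp1, a co-repressor of IRF2, had 35.4 to 52.0 CPM. Irf8, named here after its values were seen, stood apart from the list at 556, 340.1 and 108 CPM in KO176, KO177 and KO209 and at 258, 342 and 100.1 CPM in WT178, WT180 and WT207 (log2 fold change between the ranges -1.81, SE 0.25, adjusted p = 0.052 from edgeR). A further list of 65 interferon-stimulated genes had 62 tested, of which 56 were below 0 between the ranges, with 41 at an unadjusted p under 0.05, 0 called and a median of -0.60. By genotype their median was -0.09 and 0 were called. The 2 of them with the smallest p between genotypes were Gbp8, at 4.33, 3.98 and 4.34 CPM in Ythdc1Δ/Δ and 6.96, 5.5002 and 7.49 CPM in Ythdc1+/+ (log2 fold change -0.66, SE 0.18, adjusted p = 0.29 from edgeR), and Trim21, at 6.25, 8.55 and 8.61 CPM against 11.4, 11.7 and 10.5 CPM (log2 fold change -0.52, SE 0.17, adjusted p = 0.35 from edgeR). In both the genotypes did not overlap, which held for 16.3% of all genes tested. Choosing genes by the smallest p favours such separation, so it adds nothing to the p. Neither gene followed the order of samples that the 50 members showed.

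Markers of cell types moved with this order in part. Ly6a, which encodes Sca-1 and was counted both as an HSC marker and as an interferon-stimulated gene, stood at 526, 313 and 152 CPM in KO176, KO177 and KO209 and at 271, 519 and 175 CPM in WT178, WT180 and WT207. Of the 13 HSC markers 9 were above 0 in KO209 and WT207 against the other samples, 6 of them at an unadjusted p under 0.05 and 0 called. Among them Mecom, named after its values were seen, had 10.8, 13.7 and 27.5 CPM in Ythdc1Δ/Δ and 18.7, 20.5 and 27.0 CPM in Ythdc1+/+ samples. Of the 11 markers of monocytes and macrophages 6 were lower in the higher range and 5 higher, 0 called. Their summed level was 237.5 and 199.7 CPM in KO209 and WT207 and 258 to 838 CPM in the others, the highest in KO176. Ly6c2, at 105 to 576 CPM, made up most of this sum. Of the 6 tested markers of dendritic cells 5 were lower and 1 was called lower (Cox6a2), against 0.225% of all genes. The summed level of the 8 listed was 11.7 and 11.8 CPM in KO209 and WT207 and 12.03 to 23.8 CPM in the others. Of the 7 tested markers of T and NK cells 6 were lower and 0 called, and their summed level, 475 to 741 CPM, was nearly all Nkg7, while Cd3e had at most 0.344 CPM. Of the 9 erythroid markers 6 were higher in KO209 and WT207 and 3 lower, and 4, all globin genes, were called higher. The 3 lower were Klf1, Epor and Car1, with log2 fold changes of -0.83, -0.43 and -0.0996. The summed level was 1407 and 1707 CPM in KO209 and WT207 and 780.3 to 1695 CPM in the others. Most of that sum was Car2, at 708 to 1637 CPM, and not the globin genes. The summed level of B cell markers was 111 to 150.3 CPM, that of plasma cell markers 343 to 768 CPM, that of granulocyte markers 9592 to 20773 CPM, that of megakaryocyte markers 165 to 402 CPM and that of endothelial and stromal markers 153 to 185 CPM, with 0 called between the ranges in each. Of the 10 granulocyte markers 7 were above 0 between the ranges and 3 below, with a median of 0.17. The myeloid markers Mpo, Csf1r and Ccr2 were lowest in KO209 and WT207, although none of them was called. Other markers of the same lists went the other way, also without a call. Their log2 fold changes between the ranges were 1.39 in Mrc1 (SE 0.29), 0.48 in Vcam1 (SE 0.14) and 0.31 in S100a9 (SE 0.13). Mpo, which encodes the myeloperoxidase of granule-bearing progenitors and is a large part of the granulocyte sum, had 10914, 5183 and 2222 CPM in KO176, KO177 and KO209 and 4775, 5388 and 2064 CPM in WT178, WT180 and WT207 (log2 fold change between the ranges -1.57, SE 0.35, adjusted p = 0.14 from edgeR). Csf1r, the receptor of a macrophage growth factor, had -1.72 (SE 0.42, adjusted p = 0.16 from edgeR), and Ccr2, a chemokine receptor of monocytes, had -1.81 (SE 0.62, adjusted p = 0.26 from edgeR). In Ccr2, at 41.9, 15.2 and 6.57 CPM in Ythdc1Δ/Δ and 8.45, 13.7 and 4.08 CPM in Ythdc1+/+ samples, KO177 was above WT180. Mpo, Csf1r, Ccr2, Mrc1, Vcam1 and S100a9 were named after their values were seen.

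By genotype, the log2 fold change (Ythdc1Δ/Δ minus Ythdc1+/+) was above 0 for 11 of 11 markers of monocytes and macrophages (median 0.67), 10 of 10 of granulocytes (median 0.42), 9 of 10 of B cells (median 0.50) and 5 of 5 of plasma cells (median 0.38), with 0 called in each. It was below 0 for 11 of 13 HSC markers (median -0.34) and for 4 of 4 tested megakaryocyte markers (median -0.66), also with 0 called. Of the 9 tested endothelial and stromal markers 7 were above 0 and 2 were called higher. These were Lepr, the leptin receptor, at 1.73, 1.78 and 1.76 CPM in Ythdc1Δ/Δ and 0.144, 0.291 and 0.427 CPM in Ythdc1+/+ samples (log2 fold change 2.58, SE 0.32, adjusted p = 0.022 from edgeR), and Adipoq, which encodes adiponectin, at 2.18, 3.65 and 2.28 CPM against 0.192, 0.187 and 0.512 CPM (log2 fold change 3.16, SE 0.40, adjusted p = 0.022 from edgeR). Of the erythroid markers 7 of 9, of the dendritic cell markers 4 of 6 and of the T and NK cell markers 2 of 7 were above 0, with 0 called. The part of these cells in the levels of the 50 members, and in their comparison between genotypes, was not tested.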

How the data were processed

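RNA was measured in 12 libraries of HSCs, made per the labels from amplified cDNA of few cells, which can add noise at low levels. The authors deposited 1 table of raw counts, in which a pair of reads counts once for its gene, made with featureCounts 2.0.1 on GENCODE vM23 genes of mm10 without regard to strand, per the file headers. The alignment in the study's methods used Hisat2. Reads that fit several places are left out by the counter's default, which lowers near-identical copies. Symbols were matched by identifier for 55154 of 55335 genes.

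The counts of the 2 libraries of a title number were summed, since they may come from 1 mouse. Their difference exceeded sampling noise in every pair (chi-square per degree of freedom 6.24 to 21.9). Genes were tested with edgeR 4.0.16 (R 4.3.3; quasi-likelihood, robust, without the legacy option) after filterByExpr (minimum count 10, minimum total 15) and TMM scaling, with Benjamini-Hochberg adjustment over all genes tested and a threshold of 0.05. Standard errors were derived from the F statistic. Genotypes were compared alone, and ranges of title numbers with genotype as a covariate. Alternatives used DESeq2 1.42.0, limma 3.58.1 (voomLmFit) and other scalings, filters and samples. Members are named by a rule (per role group the 2 highest in mean CPM and the smallest genotype p, and all called members), and pathway genes by the 2 smallest genotype p per list. The 50 members, the lists and the rule were chosen with earlier results of these data known. The steps were tested on simulated data. No replicate number is shared by the genotypes. Promoters were taken from the RefSeq table, which held no entry matched to Usp18, Dhx58, Zbp1, Oas2, Mx1, Mx2, Iigp1, Parp9, Parp14, Ifi27l2a, Rtp4 and Ly6e, and figures were drawn with Python and matplotlib.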

Additional observations from a re-analysis of the deposited data

How the results depend on the processing

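No difference between genotypes was called for any of the 50 members in any fit that was run, and the median log2 fold change between the ranges of title numbers stayed between -0.89 and -1.20. Between the ranges 4 members were called, beside 69 of all 18234 genes in either direction. The number of members called depended on the fit. It was 44 with the 12 libraries as separate samples, 35 with voomLmFit and the title number as a random block, 33 with DESeq2, 8 without a filter and 2 with a filter of 1 CPM in 3 samples, and 0 to 17 when a sample was left out. It was 3 with RLE scaling, 4 with upper quartile scaling and 5 with the legacy option of edgeR. Treating 2 libraries of a number as separate samples counts the same number more than once. In that fit the calls over all genes rose as well, to 2855. The median over the members between genotypes ran from -0.42 to 0.43 with a sample left out. Leaving out a sample turned the genotype direction of 7 named members, with log2 fold changes from -0.52 to 0.10 in Herc6, -0.36 to 0.16 in Ddx58, -1.78 to 1.44 in Ifit3b, -0.26 to 0.69 in Oas1a, -0.80 to 0.19 in Isg20, -0.55 to 0.025 in Parp14 and -0.61 to 0.25 in Xaf1. Between the ranges it turned that of Irf1, from -0.056 to 0.12. Over the named members, 148 values kept the genotype direction and side of the threshold and 12 reversed it, counting each member under each alternative. Between the ranges 315 kept both, 73 passed the threshold only in the alternative, 16 lost it and 2 reversed. The cause of these changes was not tested. No paired analysis was possible because the genotypes share no replicate number. With 3 samples per genotype and their wide spread, a 2-fold difference between genotypes lay within the 95% interval of 28 members in both directions, and of 15 with a term for the range of title numbers, where the interval of 33 of 50 lay wholly inside a 2-fold change.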
